A study of Mus musculus with 28 samples.

Results

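The comparison described here set mature rod photoreceptors against newborn ones, as the net change in gene expression between the first and the last age of the series. Its members were chosen by age label alone, 3 arrays of postnatal day 2 (P2) and 5 arrays of postnatal day 28 (P28), which made 8 of the 28 arrays in the series. Both groups were wild-type retinas of strain C57Bl/6 that carried Nrlp-GFP, a transgene whose green fluorescent protein is made under control of the Nrl promoter and so labels rods. All mice carried the transgene, so what it does to rods itself cannot be seen. GFP-positive cells were sorted after papain dissociation, and per the labels only samples with a purity of at least 97% on re-sorting were used. Amplified RNA of each sample went onto 1 array of the type Affymetrix Mouse Exon 1.0 ST. The sources used here do not say how many retinas or animals made a sample, so a p-value reflects only how much these samples varied, and some of that variation may be technical. The other 20 arrays (P4, P6, P10, P12 and P21, with 4 at each age) served to estimate the spread and to place the change in time.

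Rods are the photoreceptors of dim light. A newborn mouse rod is a small neuron that has just left the cell cycle, still moves and extends processes, and lacks an outer segment. By about a month it carries a stack of light-sensing discs on a modified cilium, a ribbon synapse that releases glutamate in darkness, and a compact nucleus with condensed chromatin at its centre. The discs are renewed throughout life, which calls for a steady supply of membrane lipid, protein and energy. Values below are log2 levels as deposited, and a change is P28 minus P2 on that scale with its standard error (SE). A gene was called higher or lower when limma's moderated test gave an adjusted p (Benjamini-Hochberg over all genes) under 0.05 and the change was at least 2-fold.

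Of 14860 genes, 368 were higher at P28 (2.48% of all genes) and 1252 were lower (8.43%). The arrays of the ages did not overlap in 31.6% of all genes, and 43 of the 1620 called genes had overlapping arrays. A change of at least 8-fold was called for 40 genes upward and 66 downward. Calls were more frequent among genes with a high mean level. Of the 4134 genes below 6, 2.66% were lower at P28, and of the 621 genes at 10 or above 18.8% were, with a median change of -0.37 in that class against -0.04 over all genes. The split between rises and falls moved with the scaling of the arrays. Falls made up 77.3% of the calls as deposited, 60.8% with quantile normalization run once more (524 up, 814 down) and 62.1% with cyclic loess (529 up, 866 down), while the median change of all genes went from -0.041 to 0.070 and 0.022. Counts below are those of the deposited values, and either other scaling is named where it moved a count of at least 5 by over 1.5 times.

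**Figure D1:**
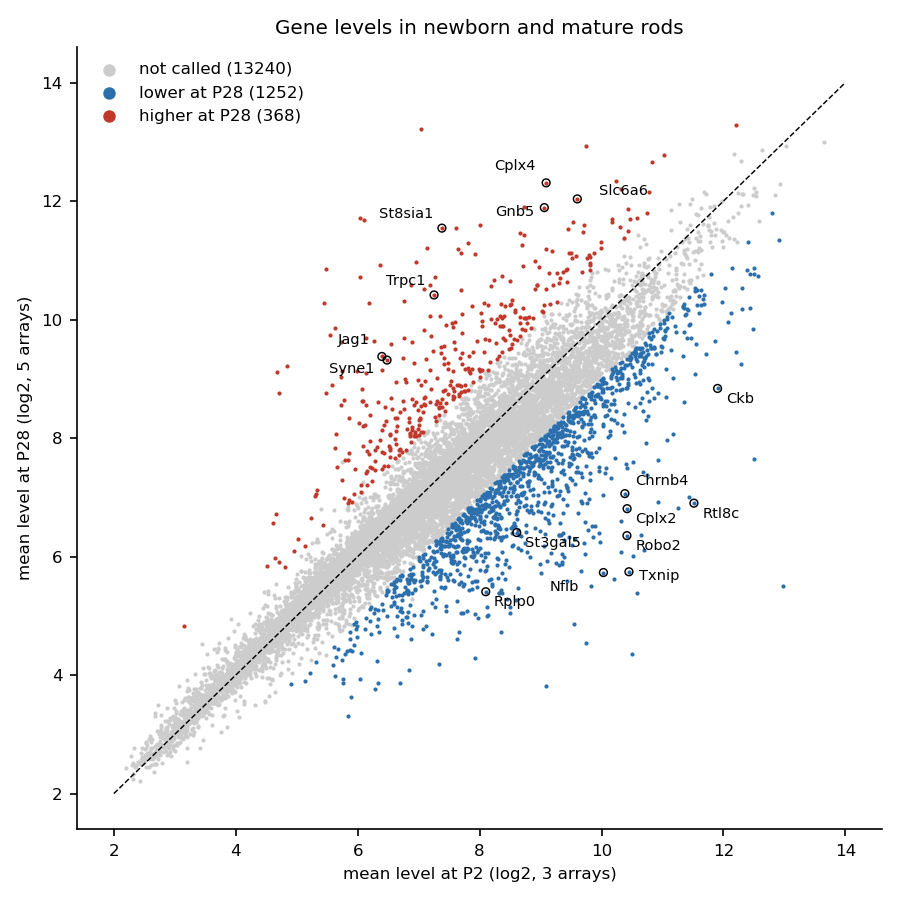
Mean log2 level at P28 (y axis) against mean log2 level at P2 (x axis) for all 14860 genes, 1 point per gene, with the 368 genes called higher in red, the 1252 called lower in blue and the dashed line at equal levels. Circled and labelled genes have per-array values in the text, and blue points outnumber red ones at high P2 levels.

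The labelled cell type was checked first. Of the 16 rod markers listed, 14 were analysed here, and 11 were higher at P28 with 0 lower. The mean level of those 14 lay between 9.14 and 9.41 in the P2 arrays and between 11.57 and 11.67 in the P28 arrays. Nrl, the transcription factor whose promoter marks the cells, stood at 9.76, 9.54 and 9.71 at P2 and 10.03, 10.05, 9.92, 9.90 and 9.87 at P28, a change of 0.28 ± 0.08 that kept the ages apart but was under 2-fold. Rom1, a structural protein of the disc rim, was already high at P2 and changed by 0.39 ± 0.07, also below the threshold. Markers of other cell types moved as well. Of 14 cone markers 9 were lower and 1 was higher, with array means of 8.24 to 8.37 at P2 and 6.67 to 7.51 at P28. Of 11 amacrine markers 6 were lower (7.77 to 8.08 against 6.43 to 6.91), of 13 Muller glia markers 4 (8.44 to 8.65 against 7.66 to 8.00) and of 15 progenitor markers 8 (8.22 to 8.64 against 6.10 to 6.32). Lists for lens, erythroid cells, pigment epithelium, microglia and astrocytes had 0 called genes, and the other lists had between 1 and 3. Only 2 of the 7 erythroid markers listed were analysed, so that list shows little. In sorted bulk samples fewer cells of a type and less RNA per cell cannot be told apart, and an array level has no true zero, so no marker can be called absent. The part that cells other than rods had in the falls described below was not tested.

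Genes were then grouped into 93 families by symbol pattern, so that every measured member was counted. They held 5372 genes, with 39.9% of all rises and 46.1% of all falls. In 57 families some members rose and others fell and in 35 the called members all fell. The largest family held dim genes, which were rarely called in any family. Of all genes with a mean level below 6, 0.242% were higher and 2.66% were lower. Of 801 olfactory, vomeronasal and trace amine receptors, Olfr448 (1.14 ± 0.33) and Olfr1391 (1.03 ± 0.35, with overlapping arrays) were higher (0.25%) and 0 were lower. Their median level was 4.40 and their median change 0.10. The highest shares of falls were in septins (6 of 11), HMG proteins (5 of 10), genes of the mitotic spindle, kinetochore, condensins and cyclins (50 of 103), G protein subunits (12 of 30), the MAGE, BEX and TCEAL group (10 of 25) and cytosolic ribosomal proteins (8 of 21). The ribosomal proteins analysed are only part of their family. The highest shares of rises were in adenylate and guanylate cyclases with their activators (4 of 21), cyclic nucleotide phosphodiesterases (4 of 22), tubulins (2 of 11), RGS proteins (3 of 21) and G protein subunits (4 of 30). By array, the call was lost for Olfr448 without P2 replicate 1 or P28 replicate 2 (0.80 to 0.94, adjusted p up to 0.101) and Olfr1391 without the other 20 arrays, P2 replicate 1, P2 replicate 3, P28 replicate 1, P28 replicate 2 or P28 replicate 5 (0.85 to 1.04, adjusted p up to 0.117).

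**Figure D2:**
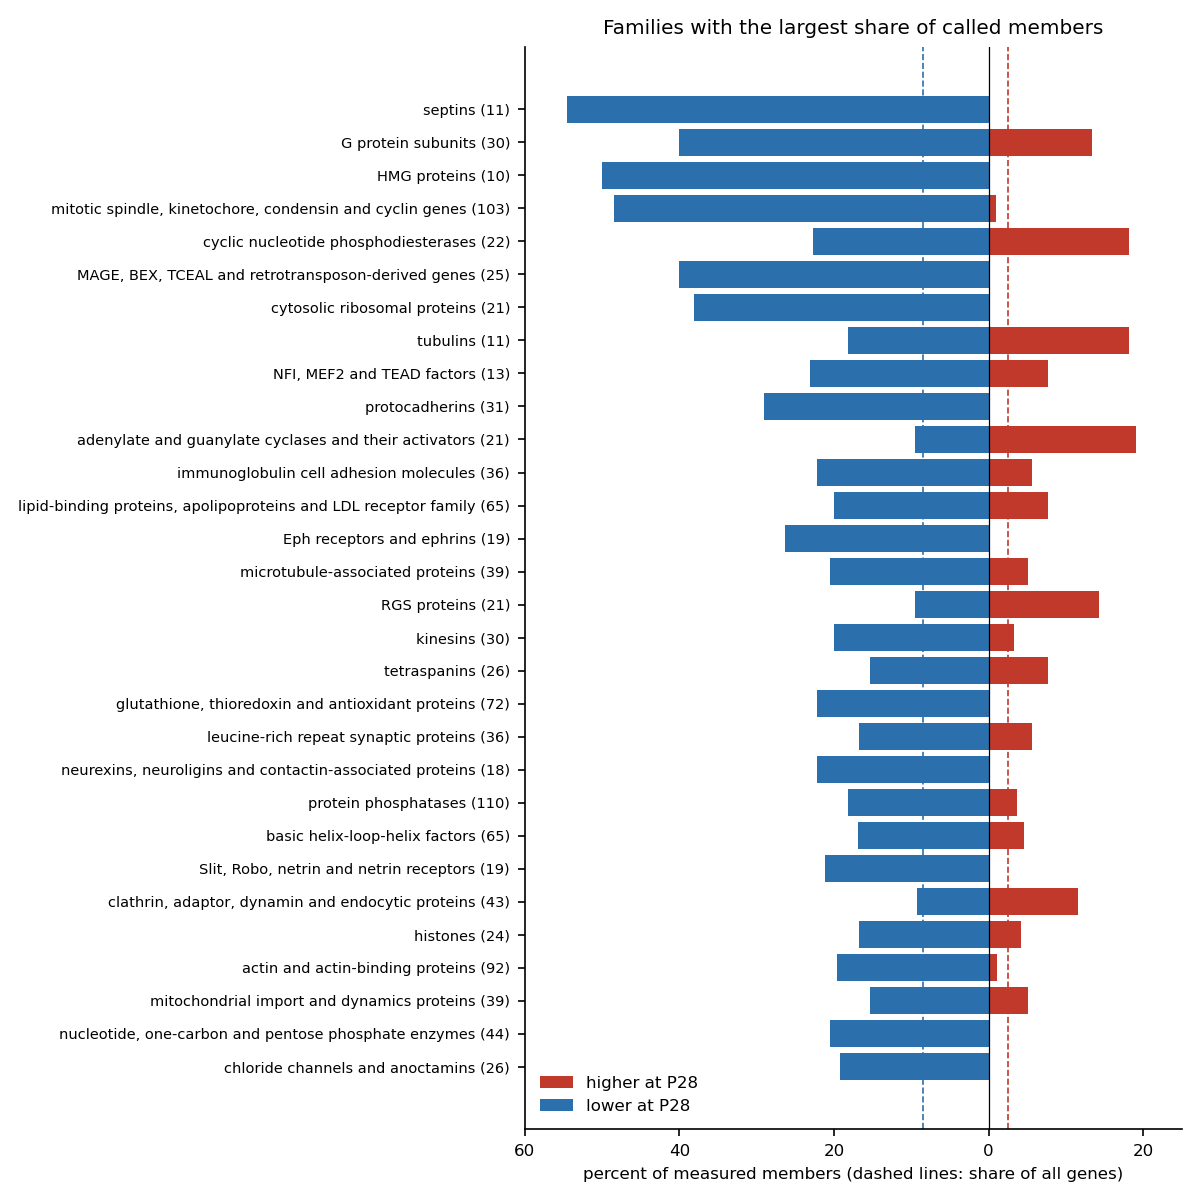
Percent of measured members called higher (red bars, to the right) and lower (blue bars, to the left) at P28 in the 30 families with the largest share of called members, with the number measured in brackets. Dashed lines mark 2.48% and 8.43%, the shares over all genes, and the blue bars reach furthest in septins and HMG proteins.

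Among the largest rises outside the phototransduction cascade were genes of gangliosides, membrane transport and signalling. In each gene given array by array from here on, the P2 and P28 arrays did not overlap, which was a condition for choosing it. St8sia1, which makes the ganglioside GD3, read 7.70, 7.49 and 6.96 at P2 and 11.36, 11.50, 11.54, 11.46 and 11.86 at P28. Every P28 array lay more than 3 log2 units above every P2 array, a change of 4.16 ± 0.22 or 17.9-fold. Tnfaip3, an inhibitor of NF-kB signalling, read 5.62, 5.65 and 5.90 at P2 and 9.44, 9.48, 9.92, 9.66 and 9.62 at P28 (3.90 ± 0.11, 14.9-fold). Vtn, which encodes the matrix protein vitronectin, rose by 4.07 ± 0.16 from 7.14 ± 0.36 to 11.21 ± 0.11 (SD). Jag1, a Notch ligand, read 6.46, 6.22 and 6.51 at P2 and 9.22, 9.48, 9.26, 9.51 and 9.43 at P28, a change of 2.98 ± 0.17. Other large rises were those of Cdr2 (4.09 ± 0.21), the signalling adaptor gene Sh2d1a (4.04 ± 0.27), the WD-repeat gene Wdr17 (3.59 ± 0.13), Grtp1 (3.55 ± 0.15), Glb1l2 (3.55 ± 0.12), the phospholipase A2 receptor Pla2r1 (3.44 ± 0.15), the G protein modulator Gpsm2 (3.43 ± 0.23), Lrrc2 (3.37 ± 0.23) and the glucokinase regulator Gckr (3.32 ± 0.24). The highest adjusted p in this set, which was taken for its large changes, was 1.99e-11. Only genes whose arrays did not overlap between the ages could enter it.

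**Figure D3:**
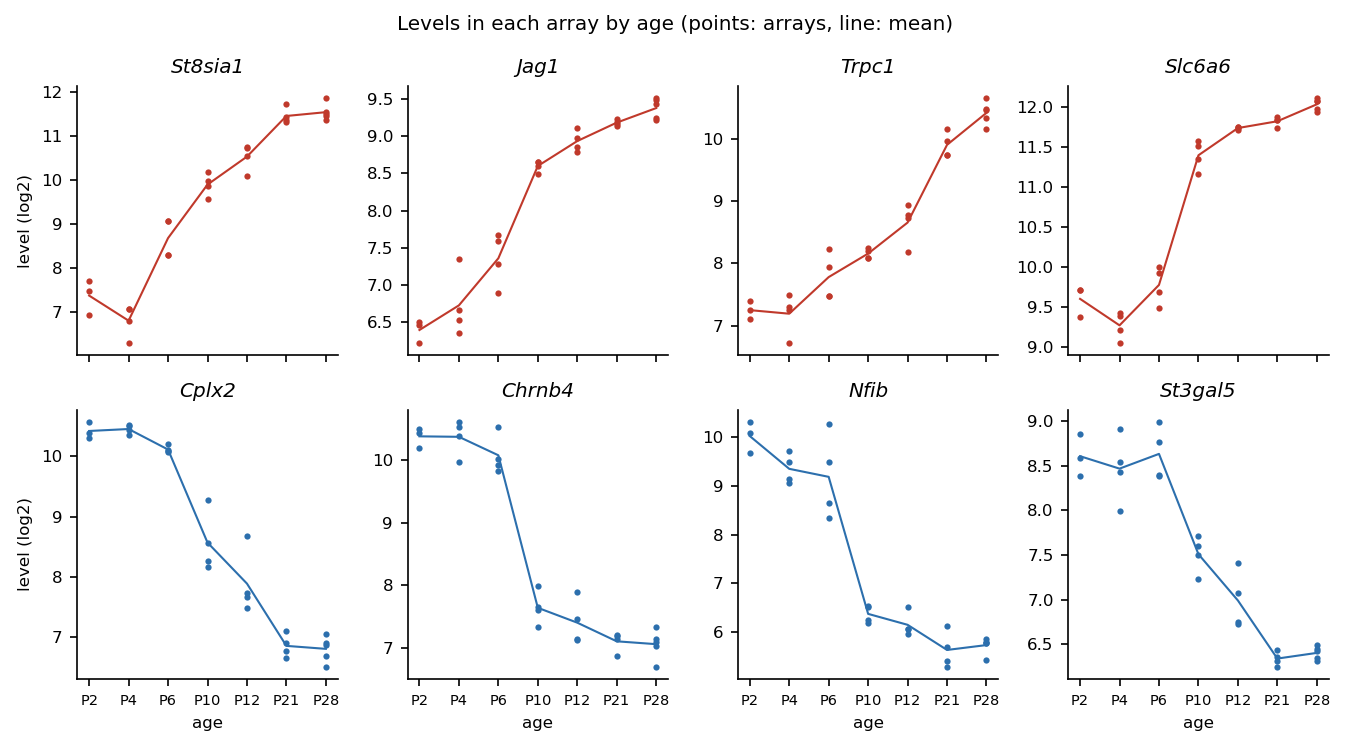
Log2 level in each array (y axis) by age (x axis, P2 to P28) for 8 genes described in the text, 1 point per array, with a line through the age means. St8sia1, Jag1, Trpc1 and Slc6a6 are higher in every P28 array than in any P2 array, and Cplx2, Chrnb4, Nfib and St3gal5 are lower. Such separation was a condition for choosing them.

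Promoter sequence was looked at for genes that rose together. RefSeq promoter windows of GRCm38.p6, 250 bases before to 50 after an annotated start, were matched by symbol for 298 of the 368 risen genes, 1020 of the 1252 fallen genes and 11894 of all 14860 genes. TAATCC, the core letters bound by the photoreceptor factor CRX, was present on either strand in 41 of the 298 risen genes (13.8%), in 74 of the 1020 fallen genes (7.25%) and in 865 of all genes (7.27%). TGCTGA, the first letters of the site bound by MAF family factors such as NRL, was present in 21.8%, 19.5% and 19.7%. Both were present in 12 risen genes (4.03%), 16 fallen genes (1.57%) and 179 of all genes (1.5%). CCAAT, bound by NF-Y, was held by 42.6% of risen, 47.4% of fallen and 42.4% of all genes, and TTTGAA, known from cell cycle promoters, by 16.1%, 16% and 16.9%. These shares describe letters in a window and not binding, and genes with several annotated starts counted once if any window held the letters. The 4 risen genes with both sequences and the largest changes are shown with the matches in capitals, read 5′ to 3′ in the direction of the gene. They are Wdr17 at chr8:54718619-54718918 (minus strand), Osbp2 at chr11:3722178-3722477 (minus strand), Alpl at chr4:137766426-137766725 (minus strand) and Rtbdn at chr8:84946741-84947040 (plus strand), each at 1 of the starts annotated for it.
Wdr17: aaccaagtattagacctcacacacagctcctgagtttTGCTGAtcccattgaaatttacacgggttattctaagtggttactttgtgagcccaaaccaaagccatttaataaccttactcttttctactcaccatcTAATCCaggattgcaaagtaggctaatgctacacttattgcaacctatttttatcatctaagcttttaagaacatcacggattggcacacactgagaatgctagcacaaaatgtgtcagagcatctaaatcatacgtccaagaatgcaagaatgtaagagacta
Osbp2: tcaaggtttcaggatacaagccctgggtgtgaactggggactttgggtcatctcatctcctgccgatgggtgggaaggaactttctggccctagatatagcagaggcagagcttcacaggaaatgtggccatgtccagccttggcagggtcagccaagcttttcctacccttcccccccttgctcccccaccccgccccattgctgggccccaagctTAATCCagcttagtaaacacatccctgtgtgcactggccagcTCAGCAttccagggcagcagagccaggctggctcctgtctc
Alpl: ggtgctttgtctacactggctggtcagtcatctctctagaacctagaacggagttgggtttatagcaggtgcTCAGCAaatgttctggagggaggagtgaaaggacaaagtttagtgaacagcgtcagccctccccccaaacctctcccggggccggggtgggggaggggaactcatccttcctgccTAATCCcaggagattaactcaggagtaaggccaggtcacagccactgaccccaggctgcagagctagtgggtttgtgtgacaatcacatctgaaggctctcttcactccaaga
Rtbdn: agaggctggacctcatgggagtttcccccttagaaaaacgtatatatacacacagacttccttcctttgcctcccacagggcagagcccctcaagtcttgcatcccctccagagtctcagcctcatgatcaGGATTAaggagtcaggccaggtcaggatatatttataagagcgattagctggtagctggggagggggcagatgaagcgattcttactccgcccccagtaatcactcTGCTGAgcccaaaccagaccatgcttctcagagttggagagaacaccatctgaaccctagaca
In Wdr17 the TAATCC match lay 114 bases before the start, in Osbp2 33 and in Alpl 63, and in Rtbdn it lay 119 bases before the start on the opposite strand (GGATTA). Osbp2, an oxysterol-binding protein, rose by 2.93 ± 0.16, Alpl, an alkaline phosphatase, by 2.73 ± 0.13 and Rtbdn, a retbindin that binds riboflavin, by 2.36 ± 0.15.

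Channels and receptors of the membrane changed in a few members each. Trpc1, a cation channel subunit, read 7.40, 7.25 and 7.10 at P2 and 10.46, 10.15, 10.34, 10.48 and 10.65 at P28, and the P28 values lay well above the P2 values (3.16 ± 0.18). In the same list of 27 TRP, HCN and CNG channels the cone channel subunits Cngb3 (-4.58 ± 0.17) and Cnga3 (-1.37 ± 0.23) fell. Among 28 P-type ATPases the flippases Atp11a (1.66 ± 0.12) and Atp11b (1.25 ± 0.10) rose and the sodium pump subunit Atp1b3 fell (-1.10 ± 0.27). Among 29 voltage-gated calcium and sodium channel subunits, the auxiliary subunit Cacna2d1 fell (-3.0 ± 0.23) together with Cacna1h, the pore of a T-type channel (-2.0 ± 0.14), while Cacnb2 and Cacna1f, subunits of the channel at the rod synapse, rose (3.43 ± 0.11 and 2.36 ± 0.12). Of 72 potassium channel genes Kcnv2, a modulatory subunit of the photoreceptor inner segment channel, rose (1.81 ± 0.12), Kcne1l (-1.56 ± 0.19) and Kcnd3 (-1.19 ± 0.23) fell, and 69 were not called. Of 26 chloride channels and anoctamins 5 fell and 0 rose, namely Clic1 (-2.93 ± 0.22), the phospholipid scramblase Ano6 (-2.66 ± 0.19), Clic4 (-2.27 ± 0.19), Ttyh2 (-2.22 ± 0.18) and Ano10 (-2.01 ± 0.21). Of 86 neurotransmitter receptors 7 fell (8.14%, near the 8.43% of all genes) and 3 rose (3.49%, against 2.48%). The nicotinic acetylcholine receptor subunit Chrnb4 read 10.44, 10.20 and 10.50 at P2 and 7.09, 7.04, 7.15, 7.33 and 6.70 at P28, a change of -3.32 ± 0.19. Its partner Chrna3 fell too (-2.64 ± 0.27). The glutamate receptor Grm8, a presynaptic receptor of photoreceptors (1.71 ± 0.20), the GABA receptor subunit Gabrr2 (1.28 ± 0.15) and the dopamine receptor Drd4 (1.20 ± 0.18) rose. The highest adjusted p among the called genes here was 0.00229. Rescaling ended the call of Atp1b3 (both scalings) and of Kcnd3 (quantile). Leaving out arrays ended the call of Atp1b3 without P2 replicate 2 or P28 replicate 2 (-0.94 to -0.85).

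Transporters also changed in both directions. In the amino acid series 3 of 57 genes rose and 7 fell. Slc6a6, the taurine transporter, read 9.72, 9.71 and 9.38 at P2 and 11.94, 11.97, 12.11, 12.09 and 12.07 at P28 (2.43 ± 0.11), and the glutamine transporter Slc38a3 (1.44 ± 0.13) and Slc7a8 (1.01 ± 0.22), a carrier of large neutral amino acids, rose with it. Slc38a1, another glutamine transporter, read 10.59, 10.70 and 10.74 at P2 and 7.73, 7.17, 7.96, 7.14 and 7.13 at P28, a change of -3.25 ± 0.16, and the glutamate transporters Slc1a1 (-1.73 ± 0.15) and Slc1a3 (-1.70 ± 0.29) and the creatine transporter Slc6a8 (-1.54 ± 0.16) fell with it. Slc1a3 is also 1 of the Muller glia markers given above. Among 40 sugar, monocarboxylate and nucleoside transporters Slc16a6 (4.68 ± 0.19) and Slc16a1 (3.31 ± 0.18) rose and Slc5a3, which carries inositol, fell (-1.25 ± 0.35) with arrays that overlapped. Among 70 inorganic ion transporters of the solute carrier series 4 rose and 4 fell. The rises were the rod exchanger Slc24a1 (4.55 ± 0.14), the sulfate transporter Slc26a2 (3.40 ± 0.23), Slc9a7 (1.99 ± 0.19), a sodium and proton exchanger of internal membranes, and Slc12a5 (1.41 ± 0.14), the neuronal chloride exporter. All 4 falls were zinc transporters of the ZIP series, Slc39a10 (-1.72 ± 0.24), Slc39a6 (-1.51 ± 0.20), Slc39a1 (-1.38 ± 0.27) and Slc39a7 (-1.03 ± 0.08). Of 39 mitochondrial carriers 4 rose, Slc25a35 (2.83 ± 0.23), the calcium-regulated ATP and phosphate carrier Slc25a25 (1.75 ± 0.09), the aspartate and glutamate carrier Slc25a12 (1.33 ± 0.17) and the iron importer Slc25a37 (1.21 ± 0.23). Their paralogues Slc25a23 (-1.29 ± 0.12), an ATP and phosphate carrier, and Slc25a13 (-1.10 ± 0.18), an aspartate and glutamate carrier, fell. Slc17a4, an organic anion transporter known from kidney and intestine, rose by 4.20 ± 0.20. All called genes in this group had an adjusted p of 0.00577 or less. The other scalings ended the call of Slc39a7 (both scalings). The call was lost for Slc7a8 without P2 replicate 3, P28 replicate 4 or P28 replicate 5 (0.85 to 0.87), Slc5a3 without P2 replicate 1 (-0.86, adjusted p = 0.09), Slc39a7 without P2 replicate 1 (-0.98), Slc25a37 without P2 replicate 3 (0.98) and Slc25a13 without P2 replicate 1 (-0.96).

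In signalling, the subunits that rods use for phototransduction rose while most other changed subunits fell. Of 30 G protein subunits 4 rose (13.3%, against 2.48% of all genes), Gnat1 (6.18 ± 0.18), Gnb5 (2.83 ± 0.10), Gngt1 (1.66 ± 0.12) and Gnb1 (1.07 ± 0.07), and 12 fell (40%, against 8.43%). Gnb5, the beta subunit that partners RGS9 in ending the light response, read 9.10, 9.03 and 9.06 at P2 and 11.97, 11.88, 11.80, 11.88 and 11.91 at P28. The falls held the cone subunits Gngt2 (-2.98 ± 0.23), Gnat2 (-2.12 ± 0.48) and Gnb3 (-2.04 ± 0.22), and subunits used in many cells, such as Gnai2 (-2.26 ± 0.20) and Gng2 (-2.11 ± 0.29). Gnai2 read 9.20, 9.34 and 9.29 at P2 and 7.44, 6.81, 7.19, 6.67 and 6.98 at P28. RGS proteins, which switch G proteins off, rose in 3 of 21, Rgs20 (2.22 ± 0.23), Rgs9bp (2.19 ± 0.26) and Rgs9 (1.63 ± 0.10), and Rgs2 (-2.07 ± 0.29) and Rgs16 (-1.41 ± 0.19) fell. Of 22 phosphodiesterases 4 rose and 5 fell, or 5 and 4 under either other scaling. Pde8a rose (2.10 ± 0.22) with the 3 rod subunits Pde6a (5.68 ± 0.17), Pde6g (2.09 ± 0.17) and Pde6b (1.84 ± 0.09), and Pde7b (-3.34 ± 0.21), Pde1b (-2.0 ± 0.17) and Pde3b (-1.40 ± 0.17) fell with the cone genes Pde6h (-1.34 ± 0.29) and Pde6c (-1.01 ± 0.25). Among 21 cyclases and activators the retinal guanylate cyclases Gucy2f (5.38 ± 0.23) and Gucy2e (1.74 ± 0.16) rose, with Guca1b (4.02 ± 0.26) and Guca1a (3.18 ± 0.35), whereas the adenylate cyclase Adcy2 and the natriuretic peptide receptor Npr2 (-1.3 ± 0.17) fell. Adcy2 read 9.26, 9.32 and 9.17 at P2 and 6.03, 5.78, 5.90, 6.00 and 5.75 at P28, a change of -3.36 ± 0.10. Limma gave these calls an adjusted p of at most 0.00253. Another scaling ended the call of Pde6c (both scalings). By array, the call was lost for Gnb1 without P2 replicate 2 (0.97) and Pde6c without P2 replicate 2, P28 replicate 2, P28 replicate 4 or P28 replicate 5 (-0.94 to -0.78).

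Calcium, lipid and phosphatase signalling also moved in both directions. Of 47 calcium-binding proteins and calmodulin kinases 4 rose, Cabp4 (2.62 ± 0.16), recoverin Rcvrn (2.53 ± 0.22), Camk1d (2.48 ± 0.15) and Camk2d (1.43 ± 0.10), and Cabp1 (-1.85 ± 0.21) and S100a10 (-1.02 ± 0.31) fell. Among 75 phosphoinositide enzymes Cds1, which makes the lipid precursor of phosphoinositides, rose (4.82 ± 0.16) with the diacylglycerol kinase Dgke (1.79 ± 0.09), Mtmr7 (1.64 ± 0.19) and Inpp1 (1.38 ± 0.18). The regulatory subunit of PI3-kinase Pik3r1 read 11.41, 11.29 and 11.34 at P2 and 8.63, 8.76, 8.47, 8.57 and 8.65 at P28, a change of -2.73 ± 0.11, and Plcd1 (-1.67 ± 0.14) and Plcg1 (-1.48 ± 0.12) fell too. The 4 rises and 8 falls became 6 and 6 after another quantile normalization and 6 and 7 with cyclic loess. Protein phosphatases fell in 20 of 110 members (18.2%), led by the receptor tyrosine phosphatases Ptpro (-2.66 ± 0.16), Ptprs (-1.96 ± 0.16), Ptprg (-1.78 ± 0.18) and Ptprd (-1.66 ± 0.25), and rose in 4, led by Ppp1r42 (2.96 ± 0.20) and the calcineurin subunit Ppp3cc (1.49 ± 0.12). The 20 falls became 10 after another quantile normalization and 13 with cyclic loess. In the Notch pathway the ligand Jag1 rose while Hey1 (-1.74 ± 0.16), Hes6 (-1.5 ± 0.17), Notch1 (-1.41 ± 0.16) and the protease Adam10 (-1.42 ± 0.15) fell, 4 of 29. Of 59 Wnt pathway genes 7 fell (11.9%, against 8.43% of all genes) and 0 rose. The receptor Fzd3 (-3.46 ± 0.46), Nkd1 (-1.74 ± 0.18) and the nuclear effector Tcf7l2 (-1.64 ± 0.18) were lowest. Hedgehog, BMP with TGF-beta, and receptor tyrosine kinase genes fell in 1 of 14, 3 of 60 and 5 of 76, shares below that of all genes, and the last count was 3 under either other scaling. These were Gli3 (-2.34 ± 0.20), then Id2 (-1.88 ± 0.31), Tgfbr1 (-1.75 ± 0.17) and Smad2 (-1.07 ± 0.14), then the endothelial marker Kdr (-2.21 ± 0.29), Spred2 (-1.90 ± 0.31), Spred1 (-1.83 ± 0.25), Igf1r (-1.23 ± 0.11) and Fgf9 (-1.04 ± 0.32), whose arrays overlapped. No call in this group had an adjusted p above 0.013. Rescaling ended the call of S100a10, Smad2, Igf1r and Fgf9 (both scalings). Leaving out arrays ended the call of S100a10 without P2 replicate 2, P2 replicate 3, P28 replicate 1 or P28 replicate 5 (-1.0 to -0.97), Smad2 without P28 replicate 2 (-0.98) and Fgf9 without P2 replicate 1, P2 replicate 2 or P28 replicate 1 (-0.93 to -0.83, adjusted p up to 0.1).

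Among guidance and adhesion genes most members were not called, and the calls were mainly falls, as over all genes. Matrix proteins had 2 rises, Vtn and Impg1 (2.88 ± 0.16) of the matrix between photoreceptors, and 1 fall, Agrn (-1.03 ± 0.13), of 84. Of 19 Slit, Robo and netrin system genes Robo2, Robo1 (-1.96 ± 0.31), Neo1 (-1.53 ± 0.14) and Dcc (-1.48 ± 0.13) fell. Robo2, a receptor for Slit repellents, read 10.38, 10.54 and 10.33 at P2 and 6.92, 6.10, 6.80, 6.11 and 5.85 at P28, a change of -4.06 ± 0.23. Eph receptors and ephrins fell in 5 of 19, Epha5 (-3.68 ± 0.16), Epha8 (-2.24 ± 0.17), Efnb2 (-2.06 ± 0.39), Efna5 (-1.58 ± 0.24) and Epha3 (-1.06 ± 0.19). Semaphorins, plexins and neuropilins fell in 4 of 29, Nrp1 (-2.47 ± 0.20), Plxnb2 (-1.97 ± 0.13), Plxna1 (-1.28 ± 0.12) and Sema6a (-1.26 ± 0.29). Among 36 leucine-rich repeat synaptic proteins Slitrk6 read 9.35, 9.96 and 9.34 at P2 and 4.29, 6.03, 4.49, 4.77 and 4.71 at P28 (-4.70 ± 0.37), with Lrrc4 (-2.32 ± 0.29) and Lrrn3 (-2.04 ± 0.38) next, while Lrit2 (1.65 ± 0.13) and Lrit1 (1.16 ± 0.12), leucine-rich repeat proteins of photoreceptors, rose. Of 36 immunoglobulin adhesion molecules 8 fell and 2 rose. Contactin Cntn1 (-3.11 ± 0.20), Nectin3 (-2.93 ± 0.16), Igsf21 (-2.40 ± 0.12) and Cadm3 (-2.21 ± 0.13) were lowest, and Nfasc (1.44 ± 0.12) and Kirrel (1.36 ± 0.14) rose. Of 30 cadherins 5 fell, N-cadherin Cdh2 (-2.17 ± 0.15), Cdh11 (-2.06 ± 0.28), Cdh12 (-1.49 ± 0.35), Cdh20 (-1.39 ± 0.19) and Clstn1 (-1.15 ± 0.10). The latrophilin Adgrl3, an adhesion receptor at synapses, fell (-3.32 ± 0.22), as did neuroligin Nlgn1 (-2.05 ± 0.22), neurexin Nrxn3 (-1.44 ± 0.14) and cerebellin Cbln1 (-1.14 ± 0.34), 4 of 18. In the integrin list 3 of 23 fell, Itga3 (-1.3 ± 0.12), Itgb1 (-1.18 ± 0.18) and Itgb5 (-1.02 ± 0.17). That list also held Itgb3bp, which is not an integrin and was not called. Tetraspanins fell in 4 of 26, Tspan15 (-2.09 ± 0.31), Tspan12 (-1.80 ± 0.22), Tspan3 (-1.48 ± 0.10) and Tspan14 (-1.09 ± 0.23), and rose in 2, the disc rim protein Prph2 (1.88 ± 0.09) and Tspan5 (1.69 ± 0.17). The highest adjusted p among the called genes here was 0.00988. The other scalings ended the call of Agrn, Clstn1, Itgb1 and Itgb5 (both scalings) and of Tspan14 (quantile). The call was lost for Agrn without P2 replicate 1 (-0.92), Epha3 without P2 replicate 2 (-0.84), Cbln1 without P2 replicate 1 (-0.93, adjusted p = 0.0782), Itgb5 without P2 replicate 1, P28 replicate 1 or P28 replicate 4 (-0.98 to -0.89) and Tspan14 without P2 replicate 1 (-0.76).

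Of 31 protocadherins 9 fell and 0 rose (29%), and all 9 falls were in the clustered beta group. Pcdhb10 had the largest fall, with 8.19, 8.09 and 6.88 at P2 and 5.38, 4.99, 5.16, 4.82 and 4.90 at P28 (-2.68 ± 0.39), followed by Pcdhb17 (-1.70 ± 0.30), Pcdhb16 (-1.58 ± 0.26) and Pcdhb18 (-1.43 ± 0.32). The beta protocadherins are near-identical copies in 1 cluster, so a probe for one can read another and the number of separate falls is uncertain. The median change of the family was -0.56, and the highest adjusted p of the genes named was 8.81e-04.

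Cytoskeletal genes fell in several families. Of 11 septins, GTP-binding proteins that form filaments and diffusion barriers, 6 fell, Septin10 (-1.69 ± 0.36), Septin9 (-1.69 ± 0.24), Septin11 (-1.31 ± 0.20), Septin3 (-1.08 ± 0.16), Septin7 (-1.05 ± 0.12) and Septin2 (-1.03 ± 0.15), and the median change was -1.03. After either other scaling 3 septins were called and the medians were -0.71 and -0.70. Septin9 read 7.80, 8.08 and 7.57 at P2 and 6.56, 6.33, 5.97, 5.90 and 5.90 at P28. Of 92 actin and actin-binding genes 18 fell (19.6%) and 1 rose, Fscn2 of the photoreceptor outer segment (1.60 ± 0.16). The formin Fmnl2 read 11.44, 11.43 and 11.41 at P2 and 7.72, 7.13, 6.19, 7.16 and 6.82 at P28 (-4.42 ± 0.23), and calponin Cnn3 (-3.41 ± 0.30), cofilin Cfl1 (-1.90 ± 0.28) and Tagln3 (-1.62 ± 0.24) followed. Small GTPases of the Rac and Rnd kind, counted with their regulators, fell in 11 of 86 members, with Rnd3 (-4.57 ± 0.29) and Arhgap31 (-2.83 ± 0.12) lowest, and 7 members after either other scaling. Arhgap10 rose (2.46 ± 0.13), as did the mitochondrial GTPases Rhot2 (1.24 ± 0.17) and Rhot1 (1.15 ± 0.10). All called genes in this group had an adjusted p of 4.88e-04 or less. Rescaling ended the call of Septin3, Septin7 and Septin2 (both scalings). Leaving out arrays ended the call of Septin7 without P2 replicate 2 (-0.99) and Septin2 without P2 replicate 3 or P28 replicate 1 (-0.98 to -0.91).

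Among microtubule genes, the tubulins Tubb2b (-2.35 ± 0.30) and Tubb2a (-1.95 ± 0.46), abundant in growing neurites, fell and Tuba4a (1.42 ± 0.19) and Tubd1 (1.16 ± 0.24) rose, of 11 measured. Kinesins fell in 6 of 30, and 5 of the 6 have roles in mitosis, Kif11 (-2.92 ± 0.31), Kif23 (-2.53 ± 0.23), Kif15 (-2.28 ± 0.23), Kif4 (-1.81 ± 0.18) and Kif20b (-1.26 ± 0.26). The sixth was Kif3a (-1.18 ± 0.12), a motor of intraflagellar transport, and Kif1b rose (1.29 ± 0.08). In the list of microtubule-associated proteins 8 of 39 fell, led by Ckap2 (-2.70 ± 0.17), Pafah1b2 (-1.84 ± 0.31), Stmn2 (-1.80 ± 0.43) and Mapre1 (-1.72 ± 0.18). Pafah1b2 was caught by its symbol and is an enzyme subunit, not a microtubule-associated protein. Rp1 (1.43 ± 0.09), a microtubule protein of the outer segment, and Mapre3 (1.05 ± 0.18) rose. Most cilium genes were not called, and the few calls were mainly rises. Of 59 genes of intraflagellar transport, the BBSome and the transition zone 5 rose (8.47%, against 2.48% of all genes) and 1 fell (1.69%, against 8.43%). The other 53 were not called, and the median change was 0.04. Kif3a was counted with the kinesins and not in this list. Bbs7 (1.53 ± 0.10), Bbs5 (1.3 ± 0.14) and Bbs2 (1.26 ± 0.15) of the BBSome coat, and Bbs12 (1.34 ± 0.19) of the complex that assembles it, rose with Fam161a (2.10 ± 0.11), and Iqcb1 fell (-1.13 ± 0.17). Bbs7 read 9.56, 9.42 and 9.55 at P2 and 10.82, 11.05, 11.02, 11.17 and 11.15 at P28. The rises were 8 after another quantile normalization and 11 with cyclic loess. Arl3 (0.51 ± 0.09) and Pde6d (0.04 ± 0.14), which deliver lipid-modified proteins to the cilium, were not called. Limma gave these calls an adjusted p of at most 0.00145. The other scalings ended the call of Kif3a and Iqcb1 (both scalings). The call was lost for Kif20b without P2 replicate 2 (-0.99) and Mapre3 without P2 replicate 2, P2 replicate 3 or P28 replicate 3 (0.95 to 0.99).

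Called transcription factors were mainly falls, as were called genes overall (1252 of 1620). Of 208 Zfp zinc finger proteins 18 fell (8.65%, against 8.43% of all genes) and 3 rose, which turned to 11 falls and 13 rises after another quantile normalization and 12 and 13 with cyclic loess. Of 37 forkhead factors Foxn3 (-2.55 ± 0.22) and Foxp4 (-1.02 ± 0.13) fell and 0 rose. Nfib, a factor of glial and neuronal differentiation, read 10.09, 10.32 and 9.68 at P2 and 5.78, 5.85, 5.43, 5.78 and 5.80 at P28 (-4.30 ± 0.28), and its relatives Nfia (-1.16 ± 0.26) and Nfix (-1.23 ± 0.26, with overlapping arrays) were lower too. Mef2c, in the same list of 13, rose (3.70 ± 0.20). Of 65 basic helix-loop-helix factors 11 fell and 3 rose. Neurod4 (-4.85 ± 0.39), the MYC antagonist Mxi1 (-2.0 ± 0.12), Id2 (-1.88 ± 0.31) and Srebf2 (-1.82 ± 0.31), the main activator of cholesterol synthesis genes, fell furthest, and the rises were Ahr, the aryl hydrocarbon receptor, Epas1, the hypoxia factor HIF-2 alpha, and Bhlhe41 (1.48 ± 0.19). Ahr read 6.19, 5.98 and 6.04 at P2 and 8.72, 8.38, 9.24, 8.83 and 8.97 at P28 and changed by 2.76 ± 0.19. Epas1 read 6.64, 6.87 and 6.82 at P2 and 9.04, 8.92, 9.20, 8.69 and 9.13 at P28 and changed by 2.22 ± 0.13. Of 131 homeobox and related factors 14 fell (10.7%, against 8.43% of all genes) and Pbx3 rose (1.05 ± 0.22). Prox1 (-2.54 ± 0.33), Six6 (-2.52 ± 0.21), Pax6 (-2.52 ± 0.30) and Zeb2 (-2.50 ± 0.20) were lowest. Prox1 is also a horizontal cell marker and Pax6 an amacrine and progenitor marker in the lists used above. Crx, a factor of all photoreceptors, changed by -0.74 ± 0.10 and was not called. Esrrb (3.39 ± 0.12) and Nr2c1 (1.15 ± 0.26) rose among 41 nuclear receptors. In that list Rxrg (-2.35 ± 0.20), Thra (-1.49 ± 0.13), Nr2e1 (-1.24 ± 0.21) and Nr6a1 (-1.07 ± 0.16) fell (9.76%, near the share of all genes). Both other scalings gave 3 rises and 3 falls. Of 23 KLF and SP factors 4 fell, Klf3 (-2.38 ± 0.25), Klf7 (-1.92 ± 0.18), Klf10 (-1.22 ± 0.16) and Klf12 (-1.20 ± 0.15). Of 28 E2F, MYB and ETS factors Mybl1 (-3.85 ± 0.29), Myb (-2.65 ± 0.30) and E2f8 (-1.54 ± 0.24) fell (10.7%), and of 18 Sox factors Sox2 (-2.14 ± 0.28) and Sox4 (-1.28 ± 0.16) fell (11.1%). Of 43 AP-1, ATF, CREB, C/EBP and MAF factors only Jun was called (-1.41 ± 0.17). No call in this group had an adjusted p above 9.04e-04. Another scaling ended the call of Foxp4, Nfix, Nr6a1 and Klf12 (both scalings). By array, the call was lost for Foxp4 without P2 replicate 1, P28 replicate 4 or P28 replicate 5 (-0.98 to -0.96), Pbx3 without P2 replicate 3 or P28 replicate 5 (0.93 to 0.98), Nr2c1 without P28 replicate 5 (1.0), Nr2e1 without P2 replicate 2 (-0.99) and Nr6a1 without P2 replicate 2 or P28 replicate 2 (-0.98 to -0.95).

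Of 10 HMG proteins, non-histone proteins that bend or loosen chromatin, 5 fell, Hmgn5 (-3.72 ± 0.33), Tox (-3.52 ± 0.20), Tox3 (-3.18 ± 0.24), Hmgn3 (-2.85 ± 0.23) and Hmgb1 (-1.29 ± 0.15). Hmgn3, which binds nucleosomes, read 10.32, 10.63 and 10.28 at P2 and 8.07, 7.85, 8.02, 7.16 and 6.69 at P28. Chromatin remodelling proteins fell in 8 of 50, with Arid5b (-3.14 ± 0.15), the ISWI enzyme Smarca1 (-2.29 ± 0.23), Bcl7a (-2.19 ± 0.19) and the NuRD enzyme Chd4 (-1.80 ± 0.12) lowest, and Dpf3, a reader of acetylated histones, rose (1.96 ± 0.17). In the list of histone and DNA modifying enzymes, Polycomb proteins and related genes 11 of 98 fell (11.2%, against 8.43% of all genes). The falls were 4 after another quantile normalization and 5 with cyclic loess. Prdm1 (-3.09 ± 0.12), the arginine methyltransferase Prmt8 (-3.02 ± 0.23), the Polycomb gene Pcgf2 (-2.22 ± 0.16) and Ezh2 (-1.97 ± 0.09) were lowest. Kdm4c, a histone demethylase, rose (1.06 ± 0.07). Of 24 histone genes H2bc21 (-2.33 ± 0.32), H1f5 (-2.01 ± 0.31) and H1f2 (-1.91 ± 0.22) fell. H4c14 was called lower (-1.27 ± 0.37) and H2ac6 higher (2.53 ± 0.66), with arrays that overlapped in both. At the nuclear envelope Syne1, a nesprin that ties the nucleus to the cytoskeleton, read 6.28, 6.51 and 6.66 at P2 and 9.05, 9.64, 9.34, 9.21 and 9.34 at P28 (2.84 ± 0.13), and Ranbp6 (2.23 ± 0.20) and Syne3 (1.04 ± 0.10) rose with it, 3 of 39, while Ranbp1 fell (-1.48 ± 0.15) and the pore protein Nup98 (0.01 ± 0.31) was not called. Division genes made up the family with the most falls, 50 of 103, where Mki67 (-6.14 ± 0.33), Cenpk (-3.62 ± 0.30), Tpx2 (-3.44 ± 0.22) and Prc1 (-3.13 ± 0.43) were lowest and Plk5 rose (1.04 ± 0.12), and 17 of 108 replication and repair genes fell, with Top2a (-5.28 ± 0.43), Parp8 (-3.29 ± 0.19), Pole3 (-2.40 ± 0.17) and Tipin (-2.33 ± 0.22) lowest and 10 after either other scaling. Mki67 and Top2a also stand in the progenitor list used above. The highest adjusted p among the called genes here was 0.00796. Rescaling ended the call of Hmgb1 (cyclic loess). Leaving out arrays ended the call of H4c14 without P2 replicate 2 (-1.09, adjusted p = 0.0575), Syne3 without P28 replicate 1 (0.99) and Plk5 without P2 replicate 1 (0.94).

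Several counts in protein synthesis and breakdown moved with the scaling of the arrays. The 21 cytosolic ribosomal proteins analysed, variant forms such as Rps27l and Rps4l included, are only part of that family. Of these 21 genes 8 fell and 0 rose (38.1%). Rplp0 (-2.69 ± 0.52), Rps27l (-2.03 ± 0.21), Rps3 (-1.96 ± 0.22) and Rps9 (-1.83 ± 0.17) were lowest. Rplp0, a protein of the ribosomal stalk, read 7.99, 8.49 and 7.82 at P2 and 6.14, 5.48, 3.94, 6.59 and 4.89 at P28. The other scalings gave 7 and 7 falls. Translation factors fell in 8 of 47 members, with Eef1e1 (-1.67 ± 0.23) and Eef1b2 (-1.58 ± 0.19) lowest, and in 2 after either other scaling. Mitochondrial ribosomal proteins fell in 6 of 68 (8.82%), near the 8.43% of all genes, and in 3 after either other scaling. Mrps18c (-2.16 ± 0.23) and Mrpl13 (-1.70 ± 0.34) were lowest. Proteasome subunits fell in 7 of 40, with Psmd10 (-1.74 ± 0.29) and Psmb7 (-1.37 ± 0.14) lowest, and in 2 after either other scaling, with family medians of -0.63 as deposited and -0.36 and -0.30. Lysosome and autophagy genes fell in 11 of 63, with Gabarap (-1.98 ± 0.19), the autophagy receptor Sqstm1 (-1.67 ± 0.15) and cathepsin Ctsl (-1.5 ± 0.14) lowest, and in 4 after either other scaling. Of 107 splicing and RNA-binding proteins 12 fell (11.2%, against 8.43% of all genes) and Mbnl1 (1.91 ± 0.09) and Srsf5 (1.38 ± 0.19) rose. Celf3 (-1.97 ± 0.12), Ptbp3 (-1.82 ± 0.24) and the progenitor factor Msi1 (-1.53 ± 0.13) were among the falls. Of 33 aminoacyl-tRNA synthetase genes only Aimp1, a scaffold of the complex, was called (-1.28 ± 0.14). Of 75 ubiquitin-conjugating and deubiquitinating enzymes 12 fell and 2 rose, with 7 and 6 falls under the other scalings. Usp11 read 9.39, 9.17 and 8.93 at P2 and 6.29, 6.09, 5.78, 5.93 and 6.24 at P28 (-3.10 ± 0.16), and Usp2 rose (1.5 ± 0.10). Among 98 cullins, F-box and related proteins 9 fell (9.18%, near the 8.43% of all genes) and 6 rose (6.12%, against 2.48%). Fbxo4 (2.13 ± 0.27) changed most among these rises. That family had 4 falls and 7 rises after another quantile normalization and 5 and 7 with cyclic loess. All called genes in this group had an adjusted p of 2.36e-04 or less. The other scalings ended the call of Aimp1 (both scalings).

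**Figure D4:**
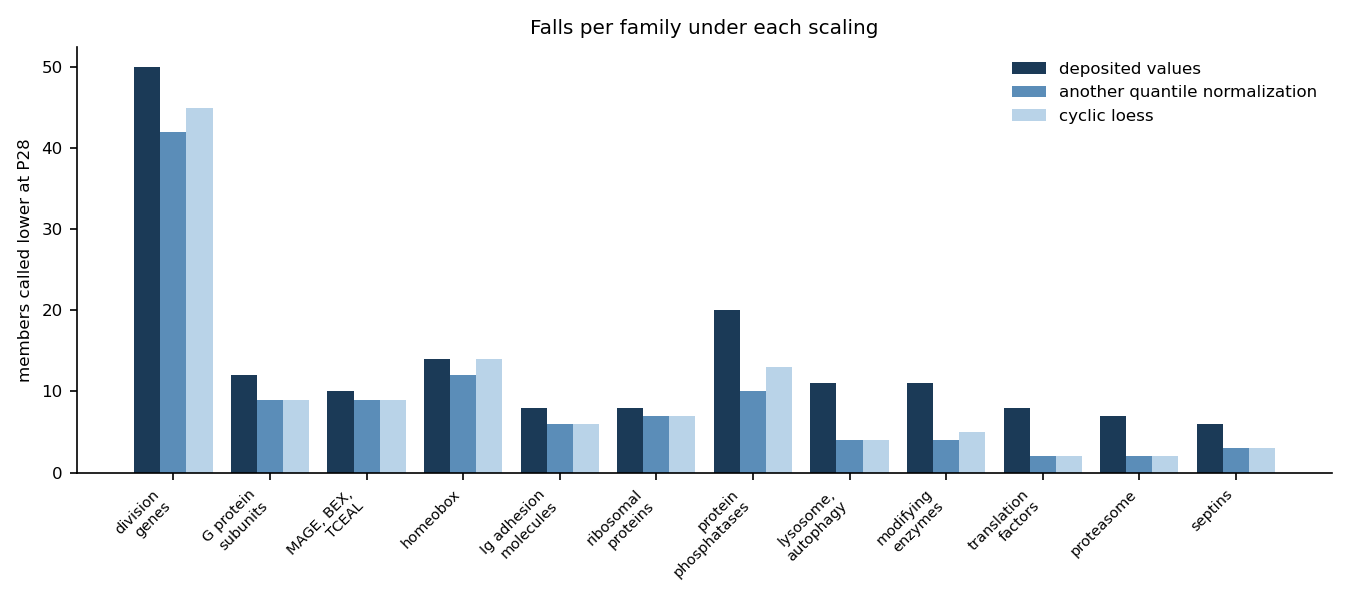
Number of family members called lower at P28 (y axis) in 12 families, with the deposited values (dark bars), with quantile normalization repeated (middle bars) and with cyclic loess (light bars). Counts for G protein subunits and the MAGE, BEX and TCEAL group stayed close, while those of translation factors and proteasome subunits fell to 2.

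Vesicle and endocytosis genes changed in both directions. Complexins clamp and trigger vesicle fusion, and the form of most brain synapses, Cplx2, read 10.57, 10.30 and 10.39 at P2 and 6.88, 6.90, 7.06, 6.51 and 6.69 at P28, a change of -3.61 ± 0.21, while the retinal ribbon form Cplx4 read 9.14, 8.95 and 9.18 at P2 and 12.28, 12.37, 12.21, 12.26 and 12.41 at P28, a change of 3.22 ± 0.11. Separate ages were a condition for giving both genes array by array. Of 79 vesicle genes 6 rose and 6 fell (7.59% each, against 2.48% and 8.43% of all genes), with 3 falls after another quantile normalization. The priming factor Unc13b (1.26 ± 0.09), the active zone protein Rims2 (1.38 ± 0.11) and Napb (1.39 ± 0.14) rose, and Vamp4 (-1.71 ± 0.15) and Erc1 (-1.3 ± 0.20) fell. Of 43 endocytic genes 5 rose, amphiphysin Amph (2.75 ± 0.15), endophilin Sh3gl2 (2.04 ± 0.21), dynamin Dnm1 (1.53 ± 0.12), Snap91 (1.16 ± 0.09) and Itsn2 (1.01 ± 0.12), which act in vesicle retrieval at synapses, and 4 fell, the clathrin light chain Cltb (-5.21 ± 0.20), Ap1s2 (-1.90 ± 0.32), Ap3m2 (-1.37 ± 0.22) and Ap4m1 (-1.23 ± 0.18). The other light chain Clta (-0.80 ± 0.10) and Bin1 (-0.72 ± 0.09) were not called. Of 98 Rab genes and regulators 8 fell and 0 rose, near the share of all genes. After another quantile normalization 3 fell and 4 rose, and with cyclic loess 4 fell and 4 rose. Rab8a (-1.53 ± 0.25) and Rab18 (-1.49 ± 0.19) were among the falls. Limma gave these calls an adjusted p of at most 3.24e-05. Another scaling ended the call of Ap4m1 (both scalings). By array, the call was lost for Itsn2 without P2 replicate 3 or P28 replicate 5 (0.89 to 0.93).

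Lipid genes changed in a divided way. The list of 65 sphingolipid and ganglioside enzymes took in sialyltransferases by symbol, and not all of those act on lipids. Of the 65 genes 5 rose and 7 fell, or 6 and 5 after another quantile normalization. St3gal5, which makes GM3, the substrate of the GD3 synthase St8sia1, read 8.38, 8.85 and 8.59 at P2 and 6.31, 6.43, 6.49, 6.45 and 6.35 at P28 and changed by -2.20 ± 0.17, opposite to St8sia1 (4.16 ± 0.22). The ceramide synthase Cers4 (1.65 ± 0.21), the desaturase Degs1 (1.35 ± 0.32) and the sialyltransferase St3gal1 (1.59 ± 0.18) rose. The sialyltransferases St3gal3 (-1.97 ± 0.14), St6gal1 (-1.65 ± 0.27) and St8sia4 (-1.49 ± 0.23) fell. Of 37 enzymes of fatty acid elongation, desaturation and activation 5 fell, Elovl2 (-2.15 ± 0.17), Fads1 (-2.03 ± 0.14), Fads2 (-1.98 ± 0.21), Scd2 (-1.24 ± 0.28) and Elovl5 (-1.11 ± 0.27), of which Elovl2, Fads1, Fads2 and Elovl5 act in the synthesis of long polyunsaturated fatty acids. Elovl2 read 11.09, 11.18 and 11.24 at P2 and 9.19, 9.24, 8.51, 9.14 and 9.01 at P28. The falls were 3 after another quantile normalization. Scd3 (1.54 ± 0.24) and Acaca (1.09 ± 0.19) rose. Of 86 phospholipid enzymes 7 rose (8.14%) and 5 fell (5.81%), the rises led by Cds1 and the secreted phospholipase Pla2g5 (2.40 ± 0.26). Of 65 lipid carriers and lipoprotein receptors 13 fell and 5 rose, with 8 rises under cyclic loess. The falls were led by Fabp7 (-7.48 ± 0.41), the retinoic acid binding protein Crabp1 (-3.29 ± 0.28), Dbi (-3.03 ± 0.23) and Lrp8 (-2.28 ± 0.16), and the rises by Osbp2, Stard7 (1.64 ± 0.10), Osbpl6 (1.26 ± 0.19) and Fabp4 (1.06 ± 0.17). Fabp7 is also a progenitor marker and Dbi a Muller glia marker in the lists used above. Cpt1a, which admits fatty acids to mitochondria, rose (1.80 ± 0.12), as did Acadvl (1.07 ± 0.11) and Pex5l (2.08 ± 0.11), and Eci2 (-1.80 ± 0.21) and Etfb (-1.15 ± 0.14) fell, of 38 fatty acid oxidation and peroxisomal genes. No call in this group had an adjusted p above 0.0021. Rescaling ended the call of Etfb (both scalings) and of Scd2 and Elovl5 (quantile). Leaving out arrays ended the call of Elovl5 without P2 replicate 2 or P28 replicate 5 (-0.97 to -0.89), Fabp4 without P2 replicate 1 (0.97) and Acadvl without P2 replicate 3 or P28 replicate 3 (0.96 to 1.0).

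Of 72 glutathione, thioredoxin and antioxidant genes 16 fell (22.2%, against 8.43% of all genes), 0 rose and 56 were not called. Either other scaling gave 11 falls. Txnip was counted among these falls although it inhibits thioredoxin, and it also limits glucose uptake. It read 10.30, 10.51 and 10.54 at P2 and 5.54, 5.46, 5.60, 5.96 and 6.15 at P28 (-4.71 ± 0.18). The peroxiredoxins Prdx4 (-2.80 ± 0.29) and Prdx2 (-2.42 ± 0.18), the glutathione transferase Gstm5 (-3.57 ± 0.33), the glutathione peroxidase Gpx1 (-1.81 ± 0.21) and the mitochondrial superoxide dismutase Sod2 (-1.44 ± 0.35) fell. With P21 in place of P28 limma gave Sod2 a change of -0.459 (adjusted p = 0.398). Prdx2 read 10.58, 10.88 and 10.73 at P2 and 8.26, 8.67, 8.09, 8.64 and 7.88 at P28. The Gstm genes are close paralogues, so their probes may read each other. Among creatine kinases the brain cytosolic form Ckb read 12.20, 11.72 and 11.78 at P2 and 9.91, 9.28, 8.74, 7.80 and 8.46 at P28 (-3.07 ± 0.30) and the mitochondrial form Ckmt1 (1.51 ± 0.11) and the mitochondrial adenylate kinase Ak4 (1.03 ± 0.31) rose. Nucleotide, one-carbon and pentose phosphate enzymes fell in 9 of 44 and rose in 0, with Ctps2 (-2.14 ± 0.17), Psat1 (-1.72 ± 0.24), Rrm1 (-1.45 ± 0.17) and Pgd (-1.33 ± 0.23) lowest, and fell in 5 after another quantile normalization. Of 66 aldehyde, alcohol and short-chain dehydrogenases 9 fell, with the retinol dehydrogenase Rdh10 (-1.96 ± 0.22), Aldh3a2 (-1.88 ± 0.23) and Aldh1a1 (-1.47 ± 0.31), which makes retinoic acid, lowest, and Rdh12 (3.92 ± 0.20) and Dhrs7 (1.64 ± 0.25) rose. Among 39 genes of mitochondrial import, dynamics and genome upkeep the polymerase subunit Polg2 (2.71 ± 0.17) and the regulator of mitochondrial genes Ppargc1a (1.12 ± 0.15) rose and 6 fell, led by Chchd5 (-1.48 ± 0.15) and Chchd3 (-1.26 ± 0.18). Either other scaling gave 4 rises and 1 fall. The highest adjusted p among the called genes here was 0.0107. The other scalings ended the call of Chchd3 (both scalings). The call was lost for Ak4 without P2 replicate 3, P28 replicate 1 or P28 replicate 3 (0.87 to 0.99, adjusted p up to 0.0539).

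The MAGE, BEX and TCEAL group holds small proteins and retrotransposon-derived genes that lie mostly on the X chromosome. Of its 25 members 10 fell and 0 rose (40%). Rtl8c, derived from a retrotransposon Gag gene, read 11.51, 11.62 and 11.41 at P2 and 7.59, 7.31, 6.38, 6.56 and 6.67 at P28 (-4.61 ± 0.28). Bex1 (-2.98 ± 0.47), Bex2 (-1.46 ± 0.13), Bex3 (-2.30 ± 0.16), Tceal9 (-2.44 ± 0.26), Tceal5 (-1.76 ± 0.40), Tceal8 (-1.63 ± 0.39) and Tceal1 (-1.51 ± 0.25) fell with it. Bex3 read 11.72, 11.70 and 11.74 at P2 and 9.99, 9.11, 9.37, 9.37 and 9.25 at P28. The other scalings gave 9 and 9 falls. BEX and TCEAL genes are close paralogues, and cross-reading of probes cannot be told from shared change here. Of 30 imprinted genes Sgce (-2.85 ± 0.29), H19 (-1.76 ± 0.42) and Plagl1 (-1.60 ± 0.20) fell, 10.0% against 8.43% of all genes, and both other scalings gave 3 falls and 3 rises. Of 62 histocompatibility, complement and interferon genes only B2m was called (-2.54 ± 0.64). Of 20 clock genes Bhlhe41 rose, Csnk1e (-2.83 ± 0.15) and Fbxl21 (-1.42 ± 0.33, with overlapping arrays) fell, and Rorb (-0.99 ± 0.12) and Nr1d2 (0.58 ± 0.12) were not called. All called genes in this group had an adjusted p of 0.00237 or less. By array, the call was lost for Tceal8 without the other 20 arrays (-1.63, adjusted p = 0.0521).

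The course between the ages was read from the mean levels of P4, P6, P10, P12 and P21, as the percent of the net change reached. These shares use the same P2 and P28 arrays as the calls and are given without a test. Genes called higher had reached a median of 4.21% at P4, 23.6% at P6, 72.9% at P10, 88.0% at P12 and 95.1% at P21. Genes called lower had reached 13.7%, 17.3%, 67.9%, 68.5% and 95.1%. P10 was the first age at or past 50% for 223 of the 368 rises (60.6%) and for 793 of the 1252 falls (63.3%). Over all 1252 falls, 11.3% passed that mark by P4 or P6, 69.4% at P10 or P12 and 19.3% at P21 or P28. Of the 50 falls among division genes 34 were at or past 50% by P4 or P6, and 15 at P10 or P12. Of the 12 falls among G protein subunits 11 passed that mark at P10 or P12, as did 19 of 20 protein phosphatases, 15 of 18 actin genes and 10 of 11 basic helix-loop-helix factors. In the MAGE, BEX and TCEAL group 6 of 10 passed it at P21 or P28, and so did 4 of 6 mitochondrial ribosomal proteins and 5 of 11 lysosome and autophagy genes.

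**Figure D5:**
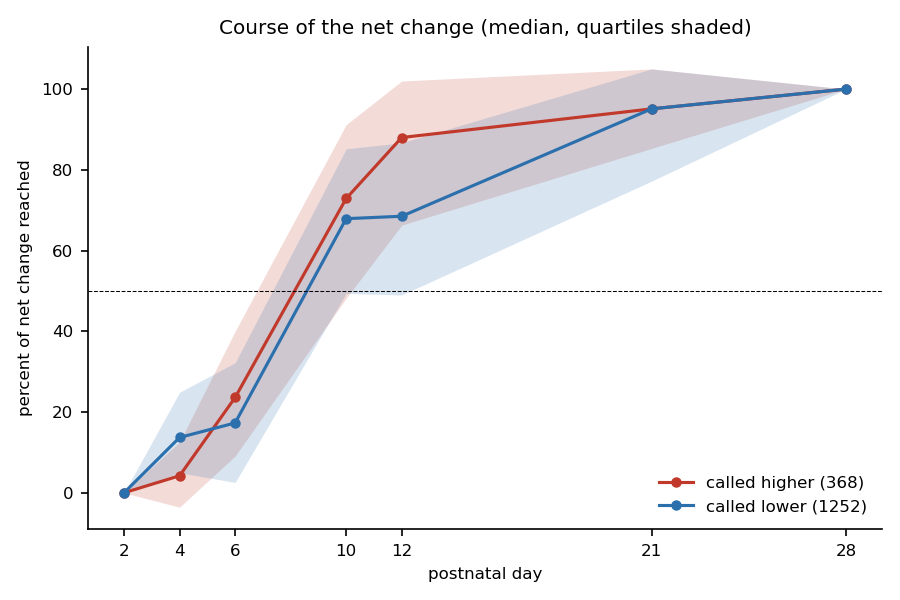
Percent of the net change from P2 to P28 reached at each age (y axis) against postnatal day (x axis) for the 368 genes called higher (red) and the 1252 called lower (blue), as the median with the quartiles shaded. Both medians lie under 25% at P6 and above 65% at P10, and the falls stay level from P10 to P12 while the rises go on.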

How the data were processed

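The authors' deposited values were log2 gene-level signals from RMA (robust multi-array average: background correction, quantile normalization and probe summary) in Affymetrix Expression Console 1.3.1.187, with mm8 as the genome build, per the submitters' processing notes. The sources used here name these tools without further steps. RMA compresses differences between dim probes, and the number of arrays limits the precision. Of 16755 transcript clusters, 14996 carried 1 gene symbol, 1019 several and 740 none. Symbols came from the platform annotation, 14941 clusters were matched to RefSeq by gene identifier, and for the 135 genes with several clusters the one with the highest mean was kept, which left 14860 genes. No column was left out and 0 array pairs were identical. Array medians were 6.88 to 6.96 at P2 and 6.72 to 6.82 at P28. The correlation of an array with its age-mates' mean was 0.981 to 0.989 at P2 and P28. At the other ages it was 0.971 (P6 replicate 1) to 0.993 (P21 replicate 3).

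One mean per age was fitted over all 28 arrays with limma 3.58.1 in R 4.3.3 (21 residual degrees of freedom), and P28 minus P2 was tested with default eBayes and Benjamini-Hochberg adjustment over all genes. A gene was called at an adjusted p under 0.05 and a change of at least 2-fold. The fit was tested on simulated data. The ages, families and lists were chosen with earlier results of these data known. Family membership followed symbol patterns. After values were seen, some genes that a pattern caught but that do not belong were taken out (H13, H19, Rps6kl1, Hspg2, Rb1, Rbl1, Rbl2, H2-Ke6, Eef2k, and the Eef1ak, Eef2kmt, Eif2ak and Zcchc genes). Others stayed in, such as Pafah1b2, Itgb3bp and sialyltransferases that do not act on lipids. The text names per family up to 4 rises and 4 falls of the largest size without overlap of arrays, up to 2 uncalled members with the highest mean, all called members of families with at most 5 calls, marker genes, rod genes, and the largest changes of all. Septin2, Septin7, Bbs2, Itsn2, Kif20b, Kif3a, Elovl5, Gpx1, Sod2, Bex2, Tceal1, Tceal5, Tceal8, Alpl and Rtbdn were named outside this rule, after their values were seen. Promoter letters were searched on both strands of RefSeq windows. Alternatives were another quantile normalization, cyclic loess, a filter on the mean level, the 8 arrays alone, the replicate number as a block, each array left out, P21 for P28, P4 for P2, trended and robust eBayes, array weights, limma's treat and all transcript clusters.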

Additional observations from a re-analysis of the deposited data

Results flagged for a closer look

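Among the 396 genes named, 19 had 1 P28 array far from the other 4, by a gap of more than 0.71 of the range of the 5 arrays. Chance alone gives about 1 in 20 genes, and 19 of 396 is about that share. The P2 group, with 3 arrays, was not tested. P28 replicate 1 stood apart for Cacna2d1 (5.82 against 4.58 to 4.91), Cbln1 (6.57 against 5.41 to 5.52), Clic1 (5.89 against 6.40 to 6.55), Fbxo4 (8.78 against 9.62 to 9.92) and Ttyh2 (8.13 against 7.28 to 7.48). P28 replicate 2 stood apart for Bin1 (10.85 against 10.46 to 10.54), Mapre1 (8.52 against 8.96 to 9.04) and Slitrk6 (6.03 against 4.29 to 4.77). P28 replicate 3 stood apart for Acaca (8.32 against 8.81 to 8.90), Gpx1 (6.13 against 6.93 to 7.12), H2bc21 (4.74 against 6.08 to 6.57), Hey1 (6.76 against 7.17 to 7.34), Nfib (5.43 against 5.78 to 5.85) and Rhot2 (10.43 against 9.38 to 9.53). P28 replicate 5 stood apart for Cenpk (4.65 against 4.13 to 4.25), Clic4 (7.43 against 6.91 to 6.99), Hmgb1 (9.87 against 9.35 to 9.50), Slc39a1 (8.28 against 7.58 to 7.74) and Slc39a10 (8.55 against 7.45 to 7.71). Of the 19, replicates 1, 2, 3 and 5 held 5, 3, 6 and 5, and replicate 4 held 0. In every called gene among them the direction of change was kept with any 1 array left out. This has to be so where the arrays of the ages do not overlap, so it says nothing about these arrays.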

How the results depend on the processing

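Over all genes, 1620 were called (368 higher, 1252 lower). Leaving out each array in turn gave 1565 to 1734 calls (355 to 384 higher, 1188 to 1379 lower). Another quantile normalization gave 814 falls. Limma's treat, which tests for a change beyond 2-fold, gave 580 calls, 182 higher and 398 lower. The other settings kept the 3 counts within 1.5 times. The replicate number as a block gave 1620 calls, 370 higher and 1250 lower. Arrays of the same number correlated at 0.035, -0.012 and 0.035 in their deviations from the age means, so the numbers were not taken as pairs. Of the 386 called genes named in the text, 0 turned direction under any setting, 29 lost the call under at least 1 other scaling, 35 when some array was left out, 11 under the block, 36 with P21 for P28, 45 with P4 for P2 and 147 under treat. Of 57 family counts of at least 5, 21 shrank and 1 grew by over 1.5 times after another quantile normalization, 17 and 2 with cyclic loess, 18 and 0 with P4 for P2, 6 and 1 with P21 for P28, and 53 and 0 under treat. Without P28 replicate 1 the falls among mitochondrial ribosomal proteins were 10 in place of 6. With genes of mean 6 or higher only, falls among division genes were 31 in place of 50, since the dim members were not tested. With P4 for P2 they were 32, and the cause was not tested. Dim probes limit what small changes can be seen.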
